A study of Mus musculus with 677 samples.

Results

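The genes described here are those of iron uptake, storage and export in the mouse intestinal epithelium. They are the transferrin receptor Tfrc, the ferrous iron transporter Slc11a2 (DMT1), the ferric reductase Cybrd1 (duodenal cytochrome b), the ferritin heavy chain Fth1, the iron exporter Slc40a1 (ferroportin) and the ferroxidase Heph (hephaestin). They are 6 of the 23420 genes in a table of single-cell expression values, and all 6 were found in it by symbol. The set was chosen by name to set transferrin uptake in crypt cells beside dietary iron handling in villus cells, with their levels by cell type in these data already known. Levels by cell type are therefore given as a description, with no test.

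The cells were primary intestinal epithelial cells of C57BL/6 mice, each sequenced as its own SMART-Seq2 library, a plate-based method that reads full-length cDNA. They came from mice without Atg16l2 (genotype Atg16l2-/-, here KO) and from wild-type mice (WT), 677 cells in all. Atg16l2 is a homologue of the autophagy gene Atg16l1, and the comparison asks what its loss does in this epithelium; the labels give neither an age nor the design of the allele. Codes M1 and M2 in the library names were read as 2 animals a genotype (KO M1, KO M2, WT M1, WT M2), and each animal has cells in run 1 and in run 2, 80 to 87 per run. The authors annotated 9 cell types: TA for transit-amplifying (37 to 48 cells an animal), Enterocyte.prog.early (31 to 42), Stem (96 cells in all), Enterocyte.prog.late (75), Goblet (70), Enterocyte (58), Enteroendocrine (32), Paneth (22) and Tuft (7). Nothing in the labels records where along the crypt and villus a cell lay, so crypt and villus are read only through these names.

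Body iron balance is set in the proximal small intestine, since no regulated route of iron excretion is known. A mature enterocyte reduces dietary ferric iron at its brush border, takes it up through DMT1, holds it in ferritin or passes it through ferroportin to the blood side, where hephaestin oxidises it for loading onto transferrin. Dividing crypt cells instead take iron from the blood side, as transferrin bound to its receptor. Much of this system is adjusted after transcription: when iron is scarce, iron regulatory proteins bind stem-loops called iron-responsive elements, which protects the transferrin receptor mRNA from decay and blocks translation of ferritin and ferroportin mRNAs. A level of mRNA is thus only part of what sets each protein.

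The stem-loops are shown first, because they divide the 6 genes by the kind of control their mRNAs can carry. The motif searched was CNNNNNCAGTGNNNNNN, in which the first C is the bulged base, CAGTGN the loop, and the 5 bases on either side of the loop must pair (Watson-Crick or G with T). The search ran over the untranslated regions of every protein-coding transcript of GENCODE M21 on GRCm38; the authors' build is not given in the sources used here. All 5 pairs were found in the 3′ untranslated region of Tfrc at 4 places and in the 5′ untranslated regions of Fth1 and Slc40a1. Slc11a2 had a site with 4 of the 5 pairs, in the 3′ untranslated region of 1 annotated transcript, and neither Cybrd1 nor Heph had a match with 4 or more pairs. Each site is given 5′ to 3′ as 30 bases of the transcript in DNA letters, with the bulged C and the loop in capitals.
Tfrc, chr16:32631219-32631248, plus strand: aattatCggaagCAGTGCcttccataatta
Tfrc, chr16:32631598-32631627, plus strand: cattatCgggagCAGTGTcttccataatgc
Tfrc, chr16:32631663-32631692, plus strand: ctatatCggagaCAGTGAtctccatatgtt
Tfrc, chr16:32631710-32631739, plus strand: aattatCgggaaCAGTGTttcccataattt
Fth1, chr19:9982732-9982761, plus strand: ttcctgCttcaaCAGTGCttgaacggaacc
Slc40a1, chr1:45925464-45925493, minus strand: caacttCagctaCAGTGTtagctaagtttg
Slc11a2, chr15:100395152-100395181, minus strand: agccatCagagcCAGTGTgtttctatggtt

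Among all genes, 0.613% of the 21045 with an annotated 3′ untranslated region and 0.148% of the 20916 with a 5′ one held a site with all 5 pairs on the sense strand. On the antisense strand the shares were 0.404% and 0.1%, and with 4 or more pairs on the sense strand they were 4.14% and 0.985%. Ftl1, the ferritin light chain, also had a site with all 5 pairs in its 5′ untranslated region. A match describes these letters and is not evidence of binding. The Slc40a1 site and each Tfrc site were also found in 1 annotated transcript. The deposited values are summed per gene, so transcripts of a gene with a site cannot be told apart from any without it. This holds for Slc11a2, Slc40a1 and Tfrc alike.

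The values are TPM, a transcript level relative to transcript length and to all RNA of the cell, scaled by the authors to the same total in every cell. TPM can be compared between genes, but it keeps no sequencing depth, so depth per cell is unknown. Atg16l2 itself was above 0 TPM in none of the KO cells, so that a share of up to 0.877% remains possible. In WT it was above 0 TPM in 11.3% of cells (exact 95% binomial interval 8.15 to 15.2%), unevenly by type. These were 11 of 49 Stem and 16 of 85 TA cells, but 2 of 64 Enterocyte.prog.early and 1 of 43 Enterocyte.prog.late cells. Goblet cells of WT had 2 of 35 and Enterocyte cells of WT 0 of 29, where 10.3% is still possible. Atg16l2 values therefore did not tell KO from WT Enterocyte cells. The marker lists of all 7 named types with a list were highest in their own type. For TA the margin was small, with a sum of 1022.7 TPM against 876.7 TPM in Enterocyte.prog.early. The types were annotated from these same cells, so this is no independent check of them. Cells of run 1 had medians of 6604.5 (KO) and 6419 (WT) genes above 0 TPM, and cells of run 2 had 5856.5 (KO) and 5653 (WT). The run 1 cells of KO M2 stood apart. In them 82 ribosomal protein genes took 7.87% of TPM, against 10.7 to 16.9% in the other 7 combinations of run and animal. Many of the genotype differences below are therefore also given without these cells, and the remaining ones only with them. The run 2 cells of KO M1 also held more Paneth transcripts outside Paneth cells, with 2.21% of TPM in 6 Paneth markers against 0.0324 to 0.361% in the other 7 combinations. With 2 animals a genotype, a limma p-value rests on the spread between those few animals. limma draws each gene's spread toward that of genes of similar level. The intervals given for shares of cells reflect counting error alone.

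**Figure D1:**
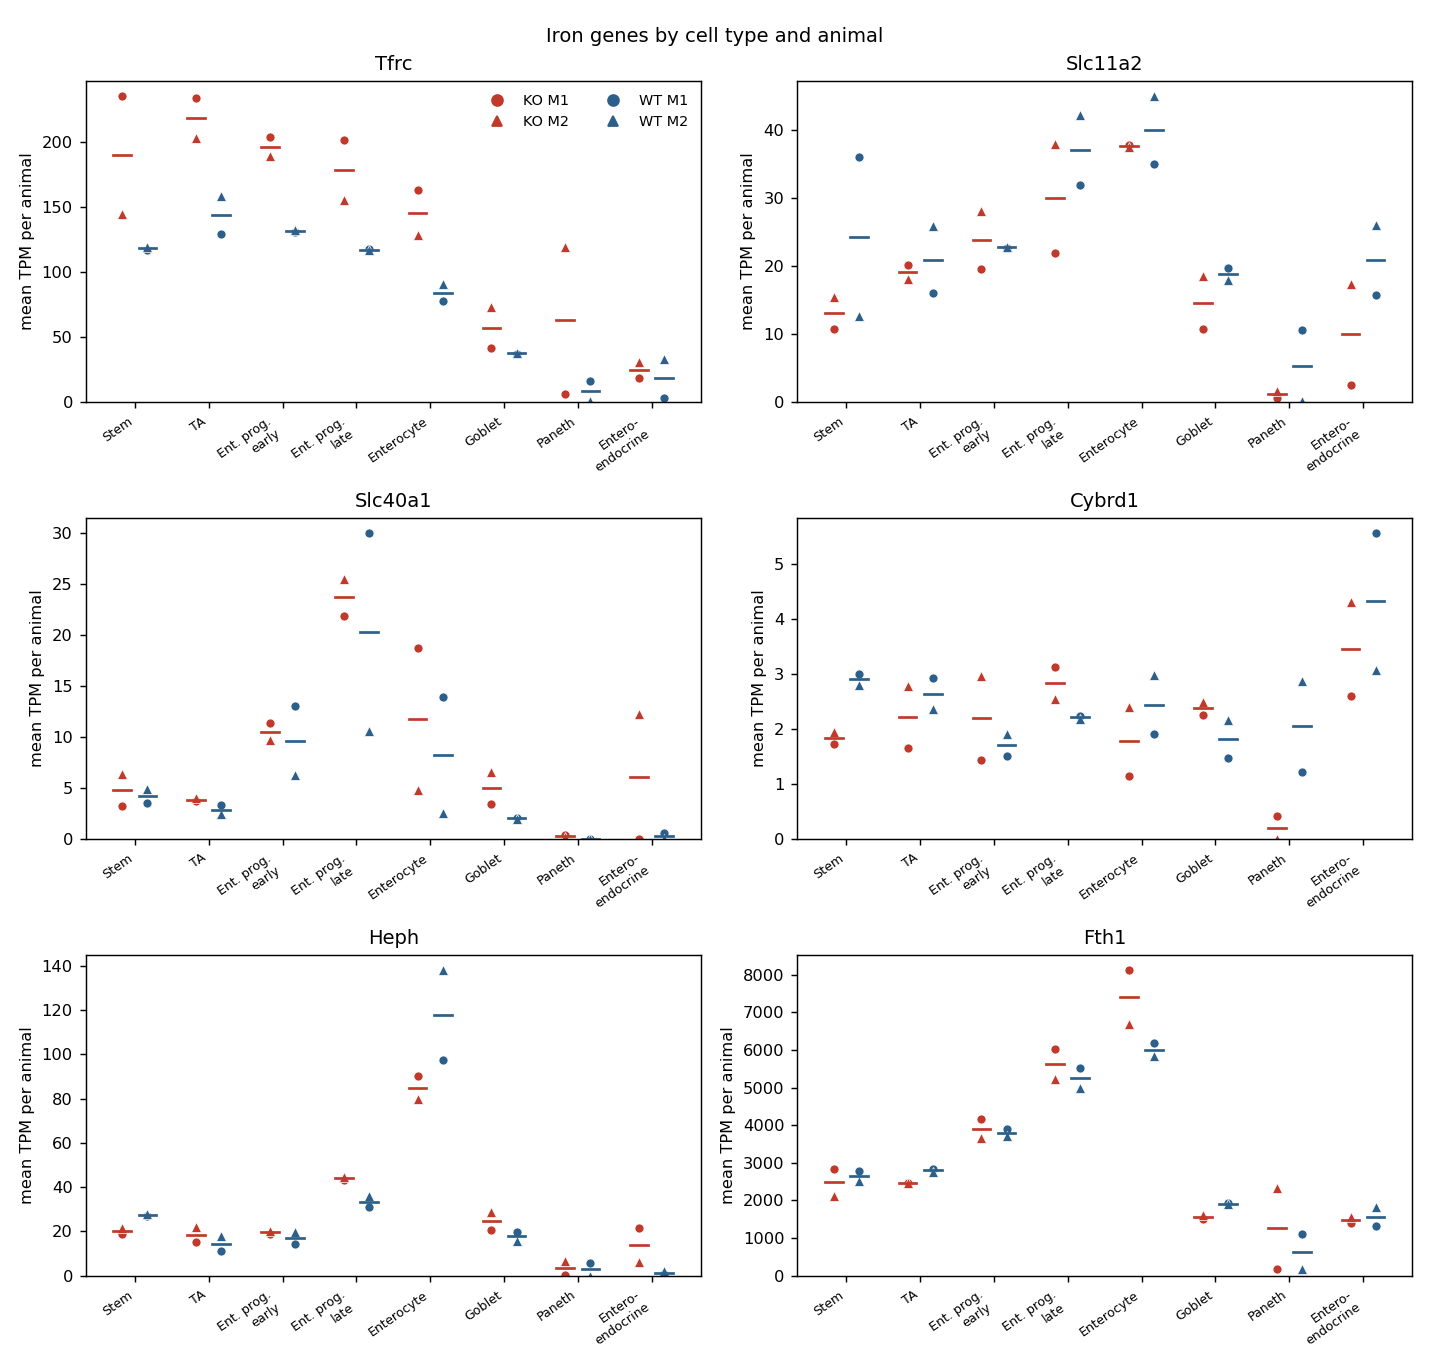
Mean TPM of each of the 6 genes (linear axis from 0) in 8 cell types, with a point for each animal that had at least 3 cells of the type (KO red, left; WT blue, right; circle M1, triangle M2) and a bar at the mean of the 2 animals of a genotype. Tfrc lies higher in KO than in WT in the 6 types from Stem to Goblet, Heph and Fth1 are highest in Enterocyte, Slc40a1 in Enterocyte.prog.late, and Cybrd1 stays below 6 TPM throughout.

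Tfrc carries transferrin-bound iron into cells, and it was the receptor found in nearly every absorptive-lineage cell. It was above 0 TPM in every TA cell, 99.3% of Enterocyte.prog.early cells, 95 of 96 Stem cells, 75 of 75 Enterocyte.prog.late and 55 of 58 Enterocyte cells. Its level was 180.7 ± 46.2 TPM in TA (SD, n = 4 animals), 163.7 ± 37.9 in Enterocyte.prog.early, 153.8 ± 55.4 in Stem, 147.6 ± 40.1 in Enterocyte.prog.late and 114.5 ± 38.4 in Enterocyte. Neighbours in that order overlapped between animals. All types came from the same 4 animals, and within each animal Enterocyte was below Enterocyte.prog.late and Enterocyte.prog.late below Enterocyte.prog.early. Goblet cells stood below all of these at 47.2 ± 17.2 TPM, with no overlap with Enterocyte.

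Within each animal Tfrc was lower in Enterocyte than in TA cells over both runs. Its log2 difference of Enterocyte minus TA was -0.52 in KO M1, -0.66 in KO M2, -0.73 in WT M1 and -0.80 in WT M2, and it was negative in 4 of 4 animals. In run 2 alone it turned in KO M2, with 145.5 TPM in Enterocyte and 137.4 TPM in TA, and in WT M2, with 142.97 TPM in Enterocyte and 140.3 TPM in TA. Over the 6714 genes kept by the filter (a mean of at least 10 TPM and a value above 0 in at least 10% of cells) the median of that difference was -0.30, with an interquartile range from -1.08 to 0.42. Tfrc thus lay within the middle of all genes, and mature enterocytes still held a mean of 114.5 TPM. Paneth and Enteroendocrine cells were lower and uneven, with 35.5 ± 56.2 and 21.2 ± 13.6 TPM (n = 4 animals, from 3 to 15 cells each). In Paneth cells KO M2 had 119.3 TPM from 3 cells, and the other animals had 6.24 (KO M1), 16.03 (WT M1) and 0.57 TPM (WT M2).

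Between genotypes, Tfrc was the member whose KO and WT animals did not overlap in any of the 6 types. Stem cells had 234.7 and 144.04 TPM in KO M1 and KO M2, against 117.03 and 119.2 TPM in WT M1 and WT M2. TA cells had 233.3 and 202.5 TPM in KO and 129.1 and 158.1 TPM in WT. Enterocyte.prog.early cells had 203.6 and 188.7 TPM in KO and 130.5 and 132.1 TPM in WT. Both KO animals lay above both WT animals in these types. Enterocyte.prog.late cells had 201.4 and 155.1 TPM in KO and 117.2 and 116.7 TPM in WT. Enterocyte cells had 162.4 and 127.9 TPM in KO and 77.5 and 90.4 TPM in WT. Goblet cells, the lowest of the 6 types, had 41.5 and 72.8 TPM in KO and 37.2 and 37.5 TPM in WT. The Goblet difference was 0.55 from these mean TPM values and -0.10 when log2 values were averaged over cells, so its direction turned with the way cells were averaged. The separation in all 6 types was a pattern shared by 4 of the 6714 genes tested (0.0596%): Tfrc, Akap7, Kat7 and Srsf5, the other 3 named after their values were seen. The higher level of Tfrc in KO was already known when the set was put together, so this count is no independent support for it.

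Averaged without weights over the 6 types, Tfrc stood at 179.5 and 148.5 TPM in the KO animals and 101.4 and 108.98 TPM in the WT animals, or 163.997 ± 21.9 TPM in KO and 105.2 ± 5.35 TPM in WT (SD, n = 2 each). On the log2(TPM + 1) scale the difference of KO minus WT was 0.62 (SE 0.14). limma, fitted over all kept genes with Benjamini-Hochberg adjustment, gave an unadjusted p of 0.00189 and an adjusted p of 0.494, so Tfrc did not pass the threshold of 0.05. It ranked 23 of 6714 genes by p. That fit called no gene (0.0%), with 510 genes at an unadjusted p under 0.05 and a smallest adjusted p of 0.219, for Rps27. An exact permutation test over 4 animals cannot go below a two-sided p of 0.333, which is what Tfrc gave. On this average the genotypes did not overlap, in one direction or the other, in 39.1% of all genes, so 2 animals a genotype separate often. That share was not counted within single types, so separation of a gene in a single type is given only as a description.

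**Figure D2:**
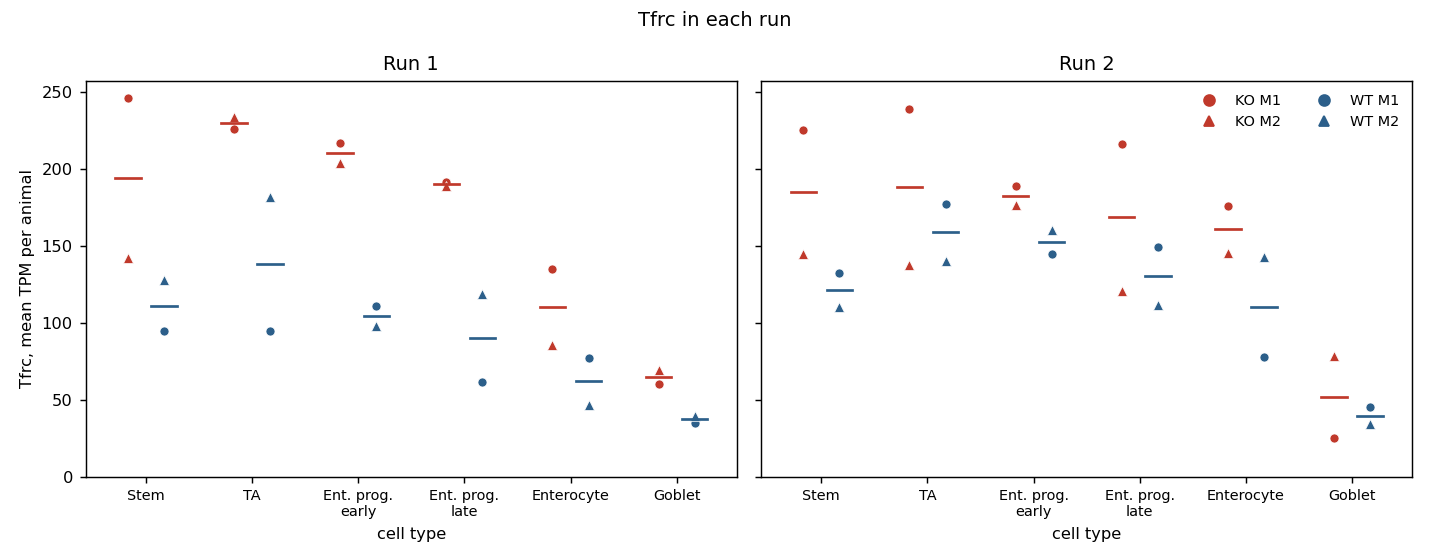
Mean TPM of Tfrc per animal in 6 cell types (linear axis from 0), drawn apart for run 1 and run 2, with KO animals in red to the left of WT animals in blue and a bar at each genotype's mean. The KO mean is above the WT mean in all 6 types of each run, and the animals of the genotypes do not overlap in 6 types of run 1 and in 3 types of run 2.

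The runs gave the same sign at unequal size. The log2 difference of Tfrc on the average was 0.89 (SE 0.23) within run 1 and 0.35 (SE 0.16) within run 2, and the KO mean was the higher in 6 of 6 types in each run. In run 1 the genotypes did not overlap in 6 types; in run 2 they did not overlap in Stem, Enterocyte.prog.early and Enterocyte, while TA, Enterocyte.prog.late and Goblet overlapped. In run 2, TA cells had 239.1 and 137.4 TPM in KO and 177.2 and 140.3 TPM in WT. The change of the difference between runs was -0.54 (SE 0.29, limma adjusted p = 0.806), which did not pass. Without the run 1 cells of KO M2 the difference on the average was 0.56 (adjusted p = 0.711); in TA it was then 0.32 and the genotypes overlapped there, while they did not overlap in the other 5 types. Across the 6 types it ran from 0.55 in Goblet to 0.78 in Enterocyte, and the F test of limma for a difference between types gave an adjusted p of 0.999.

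Tfrc is known as a gene of dividing cells, so a list of 15 proliferation genes is set beside it. The sum of these genes was about as high in Enterocyte.prog.early as in TA, with means over animals of 3323 and 3286 TPM. On the average of 6 types their summed level was 1913 and 1580 TPM in KO and 1486 and 1704 TPM in WT, which overlapped. In Enterocyte cells, where the Tfrc difference was largest of the 6 types, that sum was 214.8 and 194.6 TPM in KO and 140.05 and 171.8 TPM in WT, with both KO animals above. In Enterocyte.prog.late cells it was 447 and 383 TPM in KO and 539 and 401 TPM in WT, again overlapping. On the average 10 of the 15 genes were higher and 5 lower in KO, with a median difference of 0.19. The median was 0.32 in run 1 and -0.31 in run 2. The part of proliferation in the Tfrc difference was not tested.

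Slc11a2 imports ferrous iron across the brush border, and also out of endosomes after transferrin uptake. Its level was 38.8 ± 4.31 TPM in Enterocyte, 33.5 ± 8.78 in Enterocyte.prog.late, 23.3 ± 3.56 in Enterocyte.prog.early, 20.02 ± 4.26 in TA, 18.7 ± 11.7 in Stem and 16.7 ± 4.11 in Goblet (SD, n = 4 animals). Each neighbour in this order overlapped the next, while the ends did not overlap. The log2 difference of Enterocyte minus TA was 0.94 ± 0.14 and positive in 4 of 4 animals. Cells above 0 TPM made up 91.4% of Enterocyte cells (exact 95% binomial interval 81.02 to 97.1%) and 54.2% of Stem cells (43.7 to 64.4%). Stem cells of WT M1 had the highest Stem mean, 36.02 TPM, against 10.7 in KO M1, 15.5 in KO M2 and 12.6 TPM in WT M2.

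On the average of 6 types Slc11a2 stood at 20.1 and 25.9 TPM in KO and 26.9 and 27.7 TPM in WT. Both KO animals were below both WT animals, beside 39.1% of all genes that separated in either direction. The difference was -0.26 on the log2 scale (SE 0.20, limma adjusted p = 0.773), with -0.32 in run 1, -0.17 in run 2 and -0.36 without the run 1 cells of KO M2. The genotypes overlapped in each of the 6 types taken alone. In Enterocyte cells, where the transporter works at the brush border, KO animals had 37.8 and 37.5 TPM and WT animals 34.9 and 45.0 TPM. That difference was -0.07, smaller than its SE of 0.18 between animals.

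Cybrd1 reduces ferric iron at the duodenal brush border, and in these cells its mRNA was low and flat. Its level lay between 1.95 and 2.52 TPM in the 6 types, with 2.11 ± 0.78 TPM in Enterocyte and 2.42 ± 0.57 TPM in TA (SD, n = 4 animals). All neighbours in the order of types overlapped. The log2 difference of Enterocyte minus TA was -0.16 ± 0.30, positive in 1 of 4 animals. It was above 0 TPM in 65.5% of Enterocyte cells and in 68.6% of TA cells, and no cell of the 6 types exceeded 28.85 TPM. Enteroendocrine cells had the highest mean among types with values in all animals, 3.88 ± 1.33 TPM.

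Cybrd1 lay below the filter of 10 TPM in every type. In the limma fit without that filter its difference was -0.05 (SE 0.25, adjusted p = 0.973). KO animals had 1.89 and 2.52 TPM on the average and WT animals 2.17 and 2.40 TPM. These overlapped. By type, both KO animals were above both WT animals in Enterocyte.prog.late and Goblet and below them in Stem, with differences from -0.46 to 0.27. These separations are a description, since 2 animals a genotype separate often.

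The segment of intestine bears on these genes, since dietary iron transport is strongest in the duodenum. A list of 5 genes of the proximal small intestine summed, on the average of 6 types, to 1600 and 1268 TPM in KO and 596 and 1318 TPM in WT. A list of 4 distal genes summed to 162.2 and 173.2 TPM in KO and 140.4 and 76.4 TPM in WT. The proximal sums overlapped between genotypes, with WT M1 lowest, and 4 of 4 kept proximal genes had a higher KO mean of log2 values (median 0.53). The labels do not name the segment sampled. The part of segment in any difference of the 6 genes was not tested.

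Fth1, the ferroxidase subunit of the ferritin shell that stores iron, was the most abundant of the 6, with its level higher at each step of the absorptive lineage from TA to Enterocyte. It was above 0 TPM in all 677 cells. Its level was 6713 ± 1014 TPM in Enterocyte, 5436 ± 448 in Enterocyte.prog.late, 3855 ± 236.45 in Enterocyte.prog.early, 2627 ± 200.2 in TA, 2568 ± 328.3 in Stem and 1737 ± 210.7 in Goblet (SD, n = 4 animals). Enterocyte.prog.late did not overlap Enterocyte.prog.early, Enterocyte.prog.early did not overlap TA, and Stem did not overlap Goblet; the remaining neighbours overlapped. The log2 difference of Enterocyte minus TA was 1.34 ± 0.30, positive in 4 of 4 animals.

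Ferritin shells mix heavy chains with light chains of Ftl1, and the balance of the 2 mRNAs varied with cell type. Fth1 over Ftl1 in TPM was 3.02 ± 0.63 in Enterocyte, 2.86 ± 0.23 in Enterocyte.prog.late, 2.79 ± 0.22 in Enterocyte.prog.early, 2.01 ± 0.22 in TA and 1.61 ± 0.28 in Stem (SD, n = 4 animals). It was below 1 in Goblet, at 0.79 ± 0.08, and in Enteroendocrine, at 0.66 ± 0.22, while Paneth cells, also secretory, had 1.76 ± 0.91 from few cells, with 1.29 and 2.86 in KO and 2.10 and 0.80 in WT. Fth1 exceeded Ftl1 in 58 of 58 Enterocyte cells, 93.1% of TA cells, 20 of 70 Goblet cells, 7 of 32 Enteroendocrine cells, 13 of 22 Paneth cells and 5 of 7 Tuft cells. Ferritin genes have many near-identical pseudogene copies, and only Fth1, Ftl1 and Fthl17 are listed here, so the absolute levels are uncertain. Ftl1 itself averaged 2243 ± 131.8 TPM in Enterocyte and 2212 ± 328.97 TPM in Goblet, so the ratio differed between them through Fth1.

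Between genotypes the Fth1 difference had opposite signs in different types, but no test passed, so the directions are given only as a description. Enterocyte cells had 8138 and 6694 TPM in KO and 6192 and 5829 TPM in WT, a log2 difference of 0.30 (SE 0.15 between animals). TA cells had 2462 and 2451 TPM in KO and 2843 and 2751 TPM in WT, a difference of -0.19 (SE 0.02 between animals). Goblet cells had 1500.4 and 1618 TPM in KO and 1921 and 1907 TPM in WT, a difference of -0.30 (SE 0.05 between animals). The SE of limma, which draws on the spread of other genes, was 0.15 in Enterocyte, 0.19 in TA and 0.21 in Goblet. Its adjusted p was 0.644 in Enterocyte, 0.806 in TA and 0.892 in Goblet. The genotypes did not overlap in these 3 types and overlapped in the other 3. Other members separated in both directions too. Of the 6 types, Heph had both KO animals above in 2 and below in 2, and Cybrd1 above in 2 and below in 1. Fth1 was higher in KO Enterocyte cells in run 1 (0.32) and in run 2 (0.28), and lower in KO Goblet cells in each run (-0.13 and -0.48). Without the run 1 cells of KO M2 the Fth1 difference was -0.09 in TA, where the genotypes then overlapped, 0.31 in Enterocyte and -0.51 in Goblet. In run 1 the Enterocyte values overlapped, at 9060 and 6463 TPM in KO and 6520 and 5777 TPM in WT.

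The F test of limma for a difference of KO minus WT between types gave Fth1 an unadjusted p of 0.00939 and an adjusted p of 0.454. That test called 1 of 6714 genes (0.0149%) and none of the 4 members it covered. On the average the Fth1 difference was -0.03 (SE 0.14, adjusted p = 0.975), with 4191 and 3627 TPM in KO and 3858 and 3615 TPM in WT. Over the 6 types the differences ran from -0.30 in Goblet to 0.30 in Enterocyte.

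**Figure D3:**
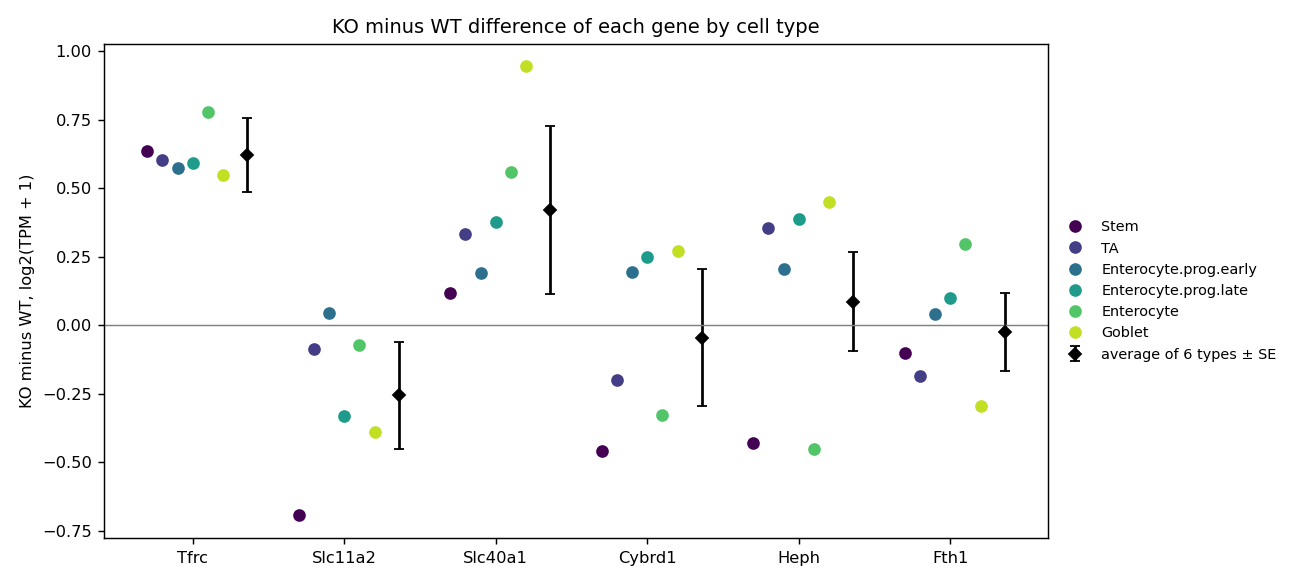
Difference of KO minus WT on the log2(TPM + 1) scale for each gene, with a coloured point for each of 6 cell types and a black diamond with its SE for their average from limma (Slc40a1 and Cybrd1, which lie under the filter, are taken from a fit to all genes). All 6 points of Tfrc lie between 0.55 and 0.78, the 6 points of Slc40a1 lie above 0, and those of Cybrd1, Heph and Fth1 lie on either side of 0.

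Slc40a1 is the exporter that hands iron to the blood, and its mRNA peaked before the mature enterocyte. Its level was 21.98 ± 8.28 TPM in Enterocyte.prog.late, 10.1 ± 2.86 in Enterocyte.prog.early and 9.98 ± 7.64 in Enterocyte, against 4.52 ± 1.43 in Stem, 3.49 ± 2.17 in Goblet and 3.35 ± 0.68 in TA (SD, n = 4 animals). All neighbours overlapped. It was above 0 TPM in 36 of 75 Enterocyte.prog.late cells (48.0%), 21 of 58 Enterocyte cells (36.2%) and 10.9% of TA cells, and the median cell of every type was at 0. In Enterocyte.prog.late those were 16 of 32 KO cells and 20 of 43 WT cells, and in Enterocyte 14 of 29 KO cells (48.3%) and 7 of 29 WT cells (24.1%). The difference of Enterocyte minus TA was 2.08 in KO M1, 0.20 in KO M2, 1.80 in WT M1 and 0.03 in WT M2, so the M1 animals carried most of it. It was above 0 in 0 of 7 Tuft cells, which allows a share of up to 42.9%.

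Slc40a1 passed the filter only in Enterocyte.prog.early and Enterocyte.prog.late. In Enterocyte.prog.late cells, KO animals had 21.9 and 25.5 TPM and WT animals 29.97 and 10.6 TPM, which overlapped, and the difference was 0.38 (limma SE 0.52, adjusted p = 0.951). In Enterocyte cells it was 18.8 and 4.77 TPM in KO and 13.9 and 2.52 TPM in WT. Over both runs the KO mean of log2 values was the higher in 6 of 6 types. The genotypes did not overlap in TA and Goblet, where means were below 7 TPM. By run, the KO mean was the higher in 4 of 6 types of run 1 and 5 of 6 of run 2. In TA the direction turned: both KO animals lay above both WT animals in run 1 and below them in run 2. Those run 2 values were 2.38 and 0.36 TPM in KO and 6.49 and 4.23 TPM in WT. In Goblet the genotypes overlapped in run 1, and both KO animals were above in run 2. On the average Slc40a1 stood at 10.4 and 9.49 TPM in KO and 10.9 and 4.79 TPM in WT, which overlapped. In the limma fit without the filter the difference was 0.42 (SE 0.31, adjusted p = 0.854). WT M2 decided its size: without WT M2 the average differed by 0.055, and the Enterocyte.prog.late difference was -0.33 without WT M2 and 1.09 without WT M1.

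Heph oxidises iron as it leaves the cell through ferroportin, and of the 6 genes Heph rose most from TA to Enterocyte on the log2 scale. Its level was 101.3 ± 25.6 TPM in Enterocyte and 38.7 ± 6.44 in Enterocyte.prog.late, against 23.8 ± 4.40 in Stem, 21.3 ± 5.49 in Goblet, 18.3 ± 2.83 in Enterocyte.prog.early and 16.4 ± 4.59 in TA (SD, n = 4 animals). The first 2 of these overlapped neither each other nor the types below them, and the lower 4 overlapped. The log2 difference of Enterocyte minus TA was 2.56 ± 0.55, positive in 4 of 4 animals, whereas 13.1% of all kept genes had a mean above 1. Heph was above 0 TPM in 57 of 58 Enterocyte cells (98.3%), 72.9% of Goblet cells, 59.4% of Stem cells and 58.3% of TA cells. It was also above 0 in 5 of 7 Tuft cells. Their means, from 1 or 2 cells an animal, were 73.8 and 21.9 TPM in KO and 0.0 and 64.6 TPM in WT. Along the absorptive lineage Heph peaked later than Slc40a1, its partner in export, and the 2 were both above 0 in 21 of 58 Enterocyte cells.

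Heph differences between genotypes changed sign with cell type and with run. Enterocyte cells had 89.97 and 79.6 TPM in KO and 97.6 and 138.1 TPM in WT, with both KO animals below. The Enterocyte difference was -0.45 (SE 0.26 between animals), and -0.63 without the run 1 cells of KO M2. Stem cells had 18.7 and 21.5 TPM in KO and 26.9 and 27.97 TPM in WT, again with both KO animals below. That Stem difference turned with run, at 0.55 in run 1, where the genotypes overlapped, and -1.16 in run 2. It was -0.75 without the run 1 cells of KO M2. Enterocyte.prog.late cells had 43.3 and 44.6 TPM in KO and 30.8 and 36.1 TPM in WT, with both KO animals above, but without the run 1 cells of KO M2 that difference was -0.23 and the genotypes overlapped. By run, Enterocyte cells of run 1 had 109.9 and 121.2 TPM in KO and 61.9 and 177.1 TPM in WT, which overlapped. Those of run 2 had 80.01 and 62.2 TPM in KO and 120.3 and 91.2 TPM in WT, with both KO animals below.

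On the average of 6 types the Heph difference was 0.09 (SE 0.18, limma adjusted p = 0.925). It was 0.57 within run 1 and -0.35 within run 2, and the change between runs was -0.92 (SE 0.41, limma p = 0.0465 unadjusted and 0.806 adjusted). Without the run 1 cells of KO M2 the average was -0.15. No direction can be given for Heph across the epithelium from these values.

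None of the members was called in any single cell type by limma. The fits called 0 of 6764 genes in Stem (0.0%), 4 of 6791 in TA (0.0589%), 0 of 6565 in Enterocyte.prog.early (0.0%), 5 of 6120 in Enterocyte.prog.late (0.0817%), 2 of 5854 in Enterocyte (0.0342%) and 1 of 6208 in Goblet (0.0161%). Without adjustment, Tfrc had p = 0.00799 in TA, 0.0103 in Enterocyte.prog.early, 0.0156 in Enterocyte and 0.0469 in Enterocyte.prog.late (limma). A count of 0 members is close to these backgrounds, so it says little about the set.

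Within single cells, Heph and Tfrc were set beside each other as the count of cells with more Heph than Tfrc, both in TPM. This count compares 2 mRNAs and measures no flow of iron. Heph exceeded Tfrc in 29 of 58 Enterocyte cells (exact 95% binomial interval 36.6 to 63.4%) and in 1.14% of TA cells (0.139 to 4.07%). Stem cells had 12 of 96 (12.5%), Enterocyte.prog.early cells 2.11%, Enterocyte.prog.late cells 8 of 75 (10.7%) and Goblet cells 22 of 70 (31.4%). Tuft cells had 3 of 7, Enteroendocrine cells 3 of 32 and Paneth cells 0 of 22.

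**Figure D4:**
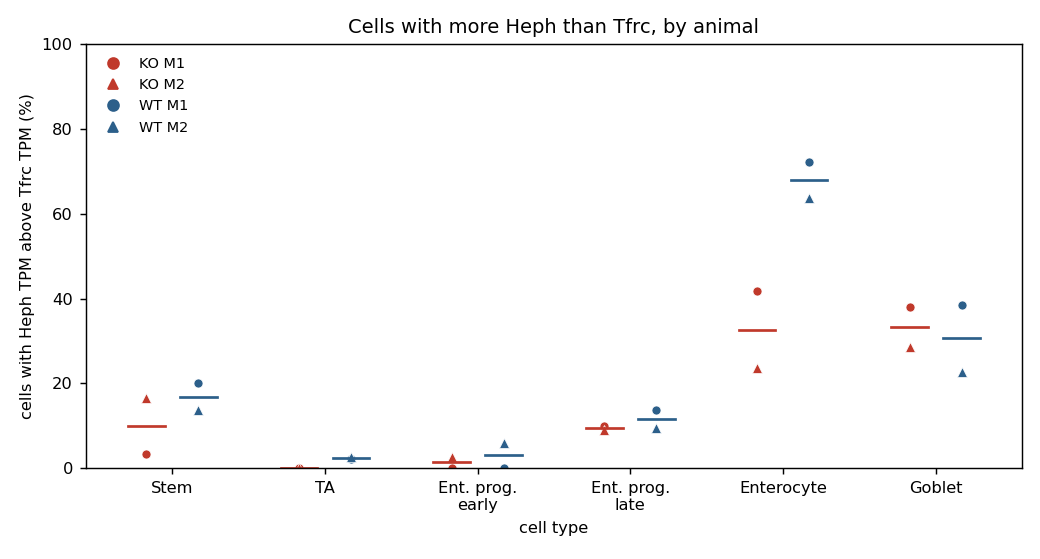
Percentage of cells with a higher TPM of Heph than of Tfrc in 6 cell types, with a point for each animal (KO red, left; WT blue, right) and a bar at the mean of the 2 animals of a genotype. In Enterocyte cells the KO animals lie at 41.7 and 23.5% and the WT animals at 72.2 and 63.6%; in the other types the genotypes lie close together or overlap.

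Among Enterocyte cells Heph exceeded Tfrc in 9 of 29 KO cells (31.03%, exact interval 15.3 to 50.8%) and 20 of 29 WT cells (68.97%, 49.2 to 84.7%). By animal it was 5 of 12 cells in KO M1 and 4 of 17 in KO M2, against 13 of 18 in WT M1 and 7 of 11 in WT M2. By run it was 4 of 9 KO cells and 10 of 13 WT cells in run 1, and 5 of 20 KO cells and 10 of 16 WT cells in run 2. Both KO animals lay below both WT animals, also in run 1 and in run 2 taken alone. In run 2 the margin was small, with 3 of 8 cells in KO M1 and 2 of 5 in WT M2. This share follows from the Tfrc and Heph levels already given for these cells and was looked at after those values were seen. It was not tested, and its interval counts cells, not animals.

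Across the 24 profiles of 6 types and 4 animals, the members fell into those that followed Fth1 and those that did not. The values are Pearson r of log2(TPM + 1), given as a description, since the profiles share animals and cell types. Slc11a2, Heph and Slc40a1 had r of 0.75, 0.70 and 0.66 with Fth1. Tfrc had r of 0.40 with Fth1, 0.35 with Slc40a1, 0.09 with Slc11a2 and -0.05 with Heph. Cybrd1 had r between -0.12 and 0.09 with every other member.

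The kept genes most like each member over the same profiles, up to 4 for each, are given by that r alone. For Tfrc they were the mitochondrial elongation factor Tufm (0.92), the pyruvate dehydrogenase subunit Pdha1 (0.91), the mitochondrial RNA-binding protein Lrpprc (0.91) and Mpzl3 (0.90). For Heph they were the apolipoprotein Apoa1 (0.94), lactase Lct (0.93), Eps8l2 (0.93) and the microvillus protein Vil1 (0.93). For Fth1 they were the nuclear receptor Nr1i3 (0.97), the caspase Casp6 (0.97) and ketohexokinase Khk (0.97). Those of Heph were highest in Enterocyte by unequal margins, from Apoa1 at 7246 TPM there and 265.1 TPM in Enterocyte.prog.late to Eps8l2 at 176.6 TPM and 87.1 TPM, while those of Fth1 were already higher in the progenitors, as with Khk at 1074 TPM in Enterocyte, 559.9 in Enterocyte.prog.late, 282.1 in Enterocyte.prog.early and 110.5 TPM in TA.

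For Slc11a2 the most like genes were the zinc importer Slc39a4 (0.86), Mylk (0.86), the bile acid transporter subunit Slc51b (0.86) and Pdcd6ip (0.83). For Slc40a1 they were Sh2d4a (0.83), Akr1c12 (0.81), Clint1 (0.80) and the polymeric immunoglobulin receptor Pigr (0.79). Sh2d4a, like Slc40a1, was highest in Enterocyte.prog.late, with 77.99 TPM there and 51.99 TPM in Enterocyte. For Cybrd1 the likeness was weaker, with Ncor1 (0.65), Ube2r2 (0.62), Vhl (0.56) and Eif2b2 (0.55).

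The wider iron system was read from 5 lists of 69 further genes, of which 65 were in the table and 42 passed the filter on the average of 6 types. Of these 42, 19 had a higher and 23 a lower mean in KO, none was called by limma (0.0% of all genes were), 2 had an unadjusted p under 0.05, and the median difference was -0.02, beside 0.03 over all 6714 genes. Without the run 1 cells of KO M2, 13 were higher and 29 lower, with a median of -0.06 beside -0.05 over all genes. Over all genes 3684 were higher and 3030 lower with those cells, and 2720 of 6635 were higher and 3915 lower without them. With those cells, both KO animals lay above both WT animals in 8 of the 42 iron genes and below them in 11. Over all 6714 genes these counts were 1476 and 1150.

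Of the transferrin cycle and non-transferrin uptake genes, 4 of 6 kept were higher in KO (median 0.13). Steap3, the endosomal reductase that works with the transferrin receptor, had 17.4 and 15.1 TPM in KO and 10.1 and 14.7 TPM in WT, with a difference of 0.45 (SE 0.24, limma adjusted p = 0.684) and the same sign in run 1 (0.62) and run 2 (0.52). Both KO animals lay above both WT animals, by a small margin for KO M2, beside 39.1% of all genes that separated in either direction. Snx3, a sorting nexin of receptor recycling, was the most abundant at 208.2 TPM and differed by -0.12. Exoc6, a subunit of the exocyst, differed by 0.30, Steap1 by -0.28 and the endolysosomal channel Mcoln1 by 0.13. Without the run 1 cells of KO M2 these were 0.17, -0.69 and -0.03, so that of Mcoln1 turned its sign. Steap1 had 0.81 ± 1.21 TPM in Enterocyte and 17.3 ± 7.30 TPM in TA (SD, n = 4 animals).

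Of the storage and iron chaperone genes, 2 of 6 kept were higher in KO (median -0.04). Bola2, which with glutaredoxins handles iron-sulfur clusters, had 55.7 and 50.9 TPM in KO and 80.1 and 94.6 TPM in WT, with a difference of -0.70 (SE 0.15, limma adjusted p = 0.494). It was -1.18 in run 1 and 0.26 in run 2, and -0.58 without the run 1 cells of KO M2, so the runs gave opposite signs. Ncoa4, the receptor that delivers ferritin to autophagosomes, had 47.3 and 50.1 TPM in KO and 43.4 and 40.2 TPM in WT. Its difference was 0.22 (SE 0.15, limma adjusted p = 0.747), at 0.18 in run 1 and 0.17 in run 2. Both KO animals were above both WT animals, beside 39.1% of all genes that separated in either direction. Ftl1 differed by -0.14, Pcbp2 by 0.19, Glrx3 by -0.07 and Pcbp1 by -0.02, Pcbp1 and Pcbp2 being cytosolic iron chaperones. Pcbp2 differed by 0.097 and Pcbp1 by -0.041 without the run 1 cells of KO M2.

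Of the export and heme handling genes, 3 of 7 kept were higher in KO (median -0.09). The heme oxygenase Hmox2 had 82.9 and 79.6 TPM in KO and 88.6 and 98.5 TPM in WT (difference -0.21, limma adjusted p = 0.746). The heme transporter Slc48a1 differed by -0.30, the biliverdin reductase Blvrb by -0.20 and the transmembrane reductase Cyb561 by 0.13. Blvrb was -0.68 in run 1 and 0.54 in run 2. Blvrb differed by -0.073 and Cyb561 by 0.035 without the run 1 cells of KO M2. Blvrb was also highest in Enterocyte.prog.early (132.5 ± 26.6 TPM) and Enterocyte.prog.late (121.3 ± 19.03), and lower in Stem (47.8 ± 8.17; SD, n = 4 animals).

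Of the iron regulators, 5 of 8 kept were higher in KO (median 0.08). Ndfip1, an adaptor of the NEDD4 ubiquitin ligases, which act on DMT1, had 87.7 and 80.4 TPM in KO and 107.98 and 96.5 TPM in WT. Its difference was -0.36 (SE 0.15, limma adjusted p = 0.637), at -0.27 in run 1 and -0.39 in run 2. Ndfip1 and its paralogue Ndfip2 were highest in Enterocyte, with 189.2 ± 26.8 and 81.4 ± 25.99 TPM, against 53.2 ± 5.47 and 36.2 ± 10.7 TPM in TA (SD, n = 4 animals). Aco1, which as an iron regulatory protein binds the stem-loops shown above, was higher in Enterocyte too, with 114.2 ± 12.6 TPM in Enterocyte and 64.3 ± 7.30 TPM in TA, and differed between genotypes by -0.03. Ndfip2 differed by 0.35, Vhl by 0.24 and Egln2 by 0.11, the last 2 being parts of oxygen sensing. With KO M2 represented by run 2 only, Ndfip2 differed by 0.27, Vhl by 0.029, Egln2 by -0.10 and Aco1 by -0.091, so the sign of Egln2 turned.

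Of the genes of mitochondrial iron, iron-sulfur clusters and heme synthesis, 5 of 15 kept were higher in KO (median -0.13). Lyrm4, a small subunit of the cysteine desulfurase complex, had 25.8 and 15.1 TPM in KO and 29.5 and 35.2 TPM in WT, a difference of -0.62 (SE 0.27, limma adjusted p = 0.637), with -1.18 in run 1 and 0.04 in run 2. Alas1, the first enzyme of heme synthesis, had 79.2 and 93.7 TPM in KO and 66.9 and 72.2 TPM in WT, a difference of 0.31 (SE 0.15, adjusted p = 0.667), with 0.56 in run 1 and 0.02 in run 2. Glrx5 differed by -0.35, the cluster scaffold Iscu by -0.15, Isca1 by 0.02 and the chaperone Hspa9 by -0.01. With KO M2 represented by run 2 only, Alas1 differed by 0.20, Lyrm4 by -0.46, Iscu by -0.091, Hspa9 by -0.045 and Isca1 by -0.040, so the sign of Isca1 turned. Hspa9 was the most abundant, at 213.4 ± 32.6 TPM in Enterocyte and 396.3 ± 27.4 TPM in TA, and Alas1 ran the other way, at 123.6 ± 17.3 TPM in Enterocyte and 57.7 ± 3.07 TPM in TA (SD, n = 4 animals).

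**Figure D5:**
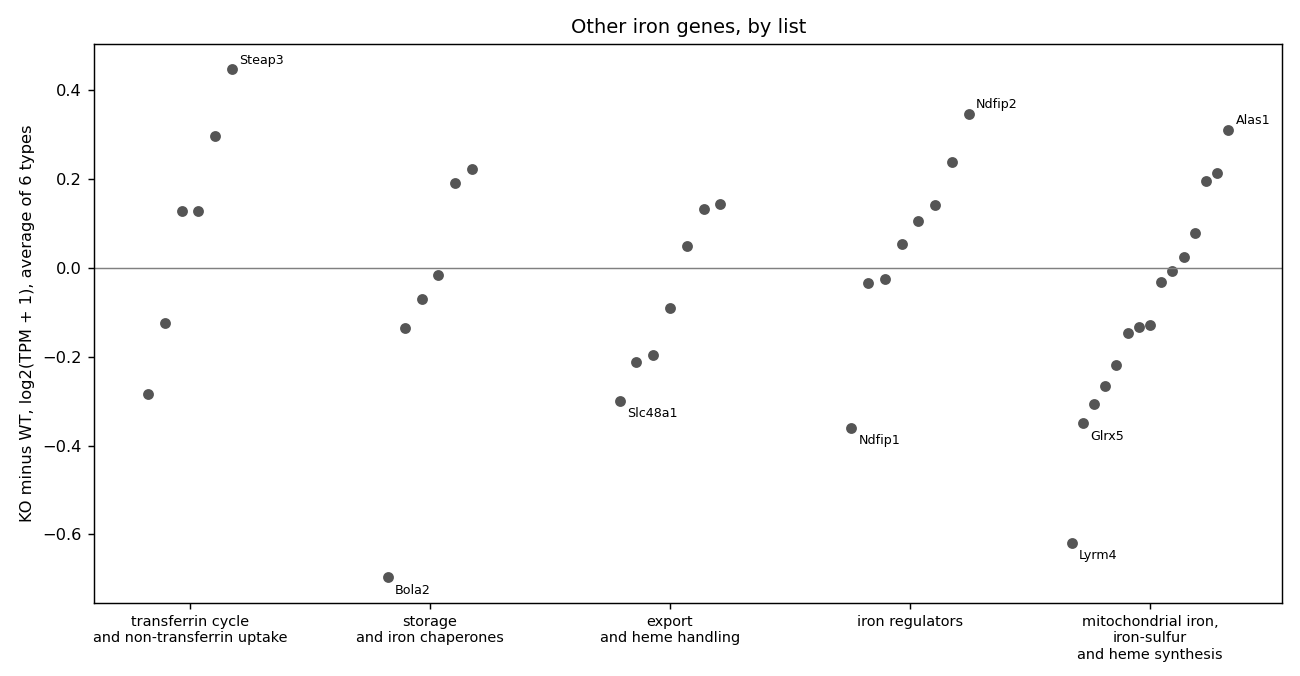
Difference of KO minus WT on the log2(TPM + 1) scale, averaged over 6 cell types, for the 42 kept genes of 5 iron lists, with a point for each gene sorted within its list. Points lie on either side of 0 in every list, from Bola2 at -0.70 to Steap3 at 0.45, and none was called by limma.

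RNA of other cells could add iron genes, above all from red cells and macrophages. Of the red cell markers, Hba-a1 was above 0 TPM in 47.9% of the 677 cells, with means over all cells of 29.5 and 29.7 TPM in KO and 39.8 and 35.8 TPM in WT. Alas2 stayed at 0.50 and 0.09 TPM in KO and 0.98 and 0.30 TPM in WT. Hba-a1 was thus lower in both KO animals, and its part in the differences of the iron genes was not tested. Of the 8 myeloid markers in the table, Cd14 had 13.7 and 13.6 TPM in KO and 18.004 and 12.5 TPM in WT, and Csf1r, C1qa, C1qb, C1qc, Emr1 and Tyrobp were each above 0 in at most 6 of 677 cells. Cd68 was above 0 in 23 of 677 cells and was higher in both KO animals, with 1.10 and 1.10 TPM in KO and 0.46 and 0.43 TPM in WT; its part in the differences was not tested. On the average of 6 types the sums were 3.71 and 2.55 TPM in KO and 1.38 and 2.26 TPM in WT for 6 T cell markers, and at most 0.71 TPM in any animal for 7 stromal and endothelial markers. The sums for 5 B and plasma cell markers were 1.90 and 5.90 TPM in KO and 3.67 and 5.22 TPM in WT.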

How the data were processed

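Single epithelial cells were profiled by SMART-Seq2, per the labels; a 10X Genomics preparation is named there as well, with nothing on which cells it concerns. Bowtie, TopHat and RSEM are named per the submitters' processing notes, without versions; the genome build is not given in the sources used here. The table the authors deposited holds TPM for 23420 genes in 677 cells, scaled to one total per cell, so depth is unknown. Every column matched a library title, which gave genotype, run, animal code and type; the labels do not say whether an M code names the same mouse in both runs. All cells were used, and no doublet caller was run.

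TPM was averaged over the cells of an animal and type and taken as log2(TPM + 1). The 6 of 9 types with at least 10 cells in each animal were tested, alone and as an unweighted average; a level needs at least 3 cells. The filter on genes asked for a mean of 10 TPM and a value above 0 in 10% of cells. Genotypes were compared by limma 3.58.1 in R 4.3.3 (eBayes with trend, two-sided), with Benjamini-Hochberg adjusted p under 0.05 over every gene that passed. A moderated F test asked whether the difference varied over types, and runs were compared with animal as a random effect (duplicateCorrelation). The fits were tested on simulated data. Alternatives were pseudocounts of 0.1 and 10, no filter, 50 TPM as the filter, logs averaged over cells, single runs, 8 units of run and animal, the run 1 cells of KO M2 or the highest cells left out, a replicate block, no trend, and each animal left out.

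The 6 genes, the lists and the rule for naming genes were chosen with earlier results of these data known. Named were the 6 genes, Atg16l2, from each iron list the 3 kept genes with the smallest p and the 3 with the highest TPM, and the 4 kept genes most correlated with each of the 6. Listed names without a row (Flvcr1, Flvcr2, Hjv, Fdx2, Hbb-bs, Hbb-bt, Adgre1) are not analysed here, and 2 genes that these rules and lists would name are not reported here. Same-numbered KO and WT animals did not deviate together over 6714 genes (r = -0.13), so numbers were not taken to pair animals. Stem-loops were searched in GENCODE M21 transcripts (GRCm38). Shares of cells carry exact binomial 95% intervals; where no cell had a value, 3 divided by the number of cells is the share still allowed.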

Additional observations from a re-analysis of the deposited data

Results flagged for a closer look

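Each gene's log2(TPM + 1) level, averaged over 6 cell types, was compared between the 4 combinations of run and animal of each genotype, and 3 of 24 such extremes lay farther from the rest than the 95% limit of Dixon's ratio for 4 values, 0.829. Chance flags about 1 in 20 groups, and 12 groups were tested. Fth1 was highest in the run 1 cells of KO M1, at 11.98 (gap over range 0.912), with 4672 TPM against 3553 to 3746 TPM in the other 3 KO combinations. Heph was lowest in the run 1 cells of WT M1, at 4.43 (0.955), with 26.2 TPM against 37.05 to 48.4 TPM in the other 3 WT combinations. Slc40a1 was highest in the run 2 cells of WT M1, at 3.22 (0.883), with 13.9 TPM against 4.47 to 6.22 TPM in the other 3 WT combinations. None of the Tfrc, Slc11a2 or Cybrd1 values was beyond that limit.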

How the results depend on the processing

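No member was called under any alternative. Tfrc on the average of 6 types kept a positive difference in 16 of 16 alternatives other than the crossed block below (0.35 to 0.89, adjusted p from 0.172 to 0.994) and Slc11a2 a negative one in 15 of 15 (-0.45 to -0.06). Heph, 0.09, was -0.35 in run 2, -0.15 without the run 1 cells of KO M2, and with an animal left out from -0.045 (WT M1) to 0.215 (WT M2), with -0.0082 without KO M2. Fth1, -0.03, was -0.109 without KO M1, 0.017 without WT M1 and 0.058 without KO M2. The causes were not tested.

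The percentage of tested genes called by limma moved with the setting. On the average, 0.0%, it was 0.0762% in run 2, 0.0149% with 8 units and 0.0 to 0.285% with an animal left out. In Stem, 0.0%, it was 0.0151% in run 2 and 0.0 to 0.195% with an animal left out. In TA, 0.0589%, it was 0.0264% with averaged logs, 0.0292% in run 1, 0.0147% with 8 units, 0.0149% without the run 1 cells of KO M2 and 0.0 to 3.47% with an animal left out. In Enterocyte.prog.early, 0.0%, it was 0.0 to 0.0765% with an animal left out. In Enterocyte.prog.late, 0.0817%, it was 0.0163% with a pseudocount of 10 and in run 1, 0.0166% without the run 1 cells of KO M2 and 0.0 to 2.24% with an animal left out. In Enterocyte, 0.0342%, it was 0.0854% with a pseudocount of 10, 0.341% at 50 TPM, 0.0168% in run 1, 0.463% without the run 1 cells of KO M2 and 0.0849 to 0.92% with an animal left out. In Goblet, 0.0161%, it was 0.0917% at 50 TPM, 0.216% with averaged logs, 0.0852% in run 2 and 0.0 to 0.402% with an animal left out. In TA, Enterocyte.prog.late, Enterocyte and Goblet it was 0.0% without the filter, without the highest cells and without trend. It was 0.0% at 50 TPM in TA and Enterocyte.prog.late, with averaged logs in Enterocyte.prog.late and Enterocyte, in run 2 in TA, Enterocyte.prog.late and Enterocyte, with 8 units in Enterocyte.prog.late, Enterocyte and Goblet, and in run 1 and without the run 1 cells of KO M2 in Goblet. The F test, 0.0149%, gave 0.104% and 0.0% with pseudocounts of 0.1 and 10, 0.194% without the filter, 0.0603% without the run 1 cells of KO M2, and 0.0% with averaged logs and in run 1. With an animal left out, its genotype has 1 sample, assumed to vary like the other genotype.

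Same-numbered animals share only a number. With the replicate block 0.0298% of genes were called on the average, 0.0887% in Stem, 0.147% in TA, 0.18% in Enterocyte.prog.late, 0.444% in Enterocyte and 0.773% in Goblet, and Tfrc was 0.62 (adjusted p = 0.764). With the block crossed, added after seeing the data, the shares were 0.655% on the average, 0.488% in Stem, 0.957% in TA, 0.0305% in Enterocyte.prog.early, 0.0% in Enterocyte.prog.late, 0.29% in Enterocyte and 0.789% in Goblet.

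Of the Enterocyte minus TA differences, Tfrc (-0.68) was -1.07 with medians over cells, -1.10 in run 1, -0.38 in run 2 and -0.81 without the highest cells. Slc11a2 (0.94) was 2.04 with medians, 0.77 in run 1 and 1.20 in run 2, and Heph (2.56) was 4.03 with medians. Depth is unknown, so its limit on Slc40a1 and Cybrd1, the low members, cannot be given.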
